A study of Mus musculus with 16 samples.

Results

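AP-1 is a transcription factor built from pairs of basic leucine zipper proteins of the Fos, Jun and Atf families, and immediate early genes are those a cell transcribes within minutes of a stimulus without making new protein first. The set described here holds 10 such genes chosen by name: the Fos family members Fos, Fosb and Fosl2, the Jun family members Jun, Junb and Jund, the related factor Atf3, the zinc finger factor Egr1, the nuclear protein Ier2, and Dusp1, a phosphatase that switches off MAP kinases. Of the 10, 9 had a row in all 16 sample tables, and all 9 passed the filter on low values, out of 10920 genes in the tables and 9891 that passed. Fosb is not analysed here.

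The transcripts were quantified by RNA sequencing of bone-marrow-derived macrophages from C57BL/6 mice aged 8 weeks. The cells came from mice labelled Sirt3K223R, which carry a lysine-to-arginine change in the mitochondrial deacetylase Sirt3, or from wild-type mice, and all were grown for 7 days in M-CSF at 20 ng/ml. For the last step they were exposed for 24 hours to IL-4 (20 ng/ml), the cytokine of alternative macrophage activation, or left untreated, which gave 4 groups of 4 libraries: Sirt3K223R with IL-4, Sirt3K223R untreated, wild type with IL-4 and wild type untreated. The labels give neither the sex of the mice nor whether the allele was present in 1 or both copies, and they do not say whether the 4 replicates of a group were separate mice, so p-values measure the spread between these libraries, which may be technical. Levels are given as FPKM, a fragment count corrected for library size and transcript length, which allows levels of different genes to be compared.

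AP-1 dimers bind short palindromes, TGANTCA and TGANNTCA, in promoters and enhancers. Fos proteins cannot pair with themselves and need a Jun partner, whereas Jun proteins can pair with each other, and Fos carries a strong activation domain that Fosl2 lacks. In macrophages, Fos, Egr1, Ier2 and Dusp1 are known for fast and brief induction by growth factors and microbial products, Atf3 for restraint of inflammatory genes, and Junb for a part in both classical and alternative activation. A measurement 24 hours after IL-4 shows a settled state, not the first wave of induction.

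The upstream sequences of 3 of these genes are shown because Fos and Dusp1 fell together with IL-4 in both genotypes, while Jun, whose protein pairs with Fos, did not fall. Each run is the 250 bases before the RefSeq start site on GRCm38.p6, written 5′ to 3′ on the strand of the gene, and capitals mark matches to TGANTCA, TGANNTCA or TGACGT (the core of the cyclic AMP response element, which overlaps TGANNTCA when followed by CA) on either strand.
Fos, chr12:85473640-85473889, plus strand: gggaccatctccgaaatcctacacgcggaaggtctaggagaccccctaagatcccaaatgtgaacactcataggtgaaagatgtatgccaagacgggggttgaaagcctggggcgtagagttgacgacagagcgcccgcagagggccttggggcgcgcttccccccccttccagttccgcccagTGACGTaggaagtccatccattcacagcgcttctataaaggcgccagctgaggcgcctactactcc
Dusp1, chr17:26508473-26508722, minus strand: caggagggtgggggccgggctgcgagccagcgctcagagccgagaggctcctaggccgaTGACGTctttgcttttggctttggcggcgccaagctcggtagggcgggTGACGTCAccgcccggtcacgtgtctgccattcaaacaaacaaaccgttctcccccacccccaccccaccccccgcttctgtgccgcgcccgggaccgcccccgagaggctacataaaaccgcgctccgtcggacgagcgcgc
Jun, chr4:95052223-95052472, minus strand: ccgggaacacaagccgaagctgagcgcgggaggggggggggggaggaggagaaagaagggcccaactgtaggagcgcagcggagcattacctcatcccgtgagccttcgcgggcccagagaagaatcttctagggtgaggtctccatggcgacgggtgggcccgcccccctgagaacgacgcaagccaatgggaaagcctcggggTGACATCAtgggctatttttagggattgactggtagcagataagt

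In the Fos window the match to TGACGT began 66 bases before the start and a TATAAA box, left in lower case, 33 bases before it. The Dusp1 window held a TGACGT that began 191 bases before the start and a TGANNTCA, here TGACGTCA, which holds TGACGT on both strands and began 143 bases before it. The Jun window held a single TGANNTCA, beginning 45 bases before the start. The set of RefSeq promoters used here had an entry for 7 of the 9 genes. TGACGT was in the windows of Fos, Dusp1 and Atf3 and in 6.47% of 32851 mouse promoters, TGANNTCA was in those of Dusp1, Jun and Jund and in 11.9% of all, and TGANTCA was in none of the 7 and in 6.75% of all. The STAT-type motif, TTC followed by any 4 bases and GAA, and the serum response element (the CArG box) were in none of the 7 windows either, against 5.85% and 1.47% of all promoters. Matches further upstream than 250 bases were not looked for, and Egr1 and Ier2 had no window. A match of letters is a description of the window and not a mapped binding site, and the RefSeq starts can lie away from the gene bounds in the files.

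By the coordinates in the files, which match the GENCODE M21 annotation of GRCm38 for each of the 9 genes except Dusp1, whose versioned identifier was not found there, Fos lies at chr12:85473890-85477273, Fosl2 at chr5:32135801-32157842, Jun at chr4:95049034-95052222 and Atf3 at chr1:191170296-191218039. Junb (chr8:84974484-84978718), Ier2 (chr8:84661331-84662852) and Jund (chr8:70698949-70700616) share chromosome 8. Dusp1 lies at chr17:26505590-26508519 and Egr1 on chromosome 18. Jun, Junb, Jund and Ier2 have a single exon in that annotation, with GC contents between 55.5% and 67.1%, whereas Fos, Fosl2, Atf3 and Dusp1 have 4 exons and lie between 51.9% and 54.9%. Egr1 has 2 exons and a GC content of 57.3%, within the range of the single-exon genes.

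The 8 macrophage markers examined were present in every library, with summed levels of 10920 to 12730 FPKM in Sirt3K223R cells with IL-4, 13390 to 16150 FPKM in untreated Sirt3K223R cells, 10910 to 11960 FPKM in wild-type cells with IL-4 and 14560 to 16200 FPKM in untreated wild-type cells. Sirt3 itself ranged from 1.18 to 1.42, 1.43 to 1.73, 1.06 to 1.63 and 1.24 to 1.62 FPKM in the same group order, which does not check a point mutation. Sums of neutrophil, stromal, and erythroid and platelet markers did not overlap between treatments in Sirt3K223R cells. In wild-type cells the neutrophil sums and the erythroid and platelet sums overlapped, and no sum was tested. The 6 of 10 neutrophil markers in the tables summed to 40.4 to 63.9 FPKM with IL-4 and 105 to 145 FPKM without in Sirt3K223R cells, and to 53.5 to 105 FPKM with IL-4 and 78.8 to 165 FPKM without in wild-type cells. The 3 of 5 stromal markers summed to 0.920 to 2.06 and 5.31 to 6.35 FPKM in Sirt3K223R cells with and without IL-4, and to 1.31 to 2.45 and 3.54 to 4.69 FPKM in wild-type cells with and without it. The 3 of 6 erythroid and platelet markers in the tables (Car2, Pf4 and Ppbp) ran the other way in Sirt3K223R cells, at 249.9 to 325.5 FPKM with IL-4 and 102 to 181 FPKM without. In wild-type cells they overlapped, at 94.8 to 239 FPKM with IL-4 and 44.6 to 160 FPKM without. Except in wild-type cells with IL-4, 1 of the 3 was below 0.5 FPKM in every library of the group, so the sums rest on the others. Of the other lists the tables held 1 gene of 7 for dendritic cells (Batf3, described below), 1 of 4 for B cells (Cd79b, 0.524 to 2.07 FPKM over all libraries), 1 of 6 for T and NK cells (Cd4, which macrophages can also express) and 0 of 4 for mast cells and basophils. Cd4 was at 1.02 to 1.66 FPKM with IL-4 and 3.03 to 4.23 FPKM without in Sirt3K223R cells, and at 1.05 to 1.59 FPKM with and 2.43 to 2.89 FPKM without in wild-type cells. Their part in the results below was not tested, and in bulk samples fewer cells of a type and less RNA per cell cannot be told apart. Replicate 2 of the Sirt3K223R group with IL-4 correlated less with its group (median r of 0.980) than the other 15 libraries did with theirs (0.985 to 0.990), and differences of the 9 genes that it moved by over 1.5 times, or whose call it changed, are also given without it.

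Atf3 was the most abundant of the 9 transcripts in every group and Egr1 the least. Atf3 averaged 360 ± 42.7 FPKM in Sirt3K223R cells with IL-4, 330 ± 28.2 in untreated Sirt3K223R cells, 392 ± 11.9 in wild-type cells with IL-4 and 307 ± 26.5 in untreated wild-type cells (SD, n = 4 each). Jund followed at group means of 133, 101, 107 and 101 FPKM, and its libraries did not overlap those of the next gene in any group. Jun and Junb came next at 57.5 to 73.5 FPKM, and their libraries overlapped in 3 of the 4 groups, all except untreated Sirt3K223R cells. The order below them depended on IL-4. In untreated cells Fos and Dusp1 (19.6 to 28.0 FPKM) stood above Ier2 (10.8 and 10.9 FPKM) and Fosl2 (4.13 and 3.96 FPKM) with no overlap, whereas in Sirt3K223R cells with IL-4 neighbours among Fos, Fosl2, Ier2 and Dusp1 overlapped at 9.04 to 10.5 FPKM. Egr1 stayed at 0.977 to 1.66 FPKM, where the pseudocount of 1 in the log2(FPKM + 1) scale used for all tests understates a change.

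**Figure D1:**
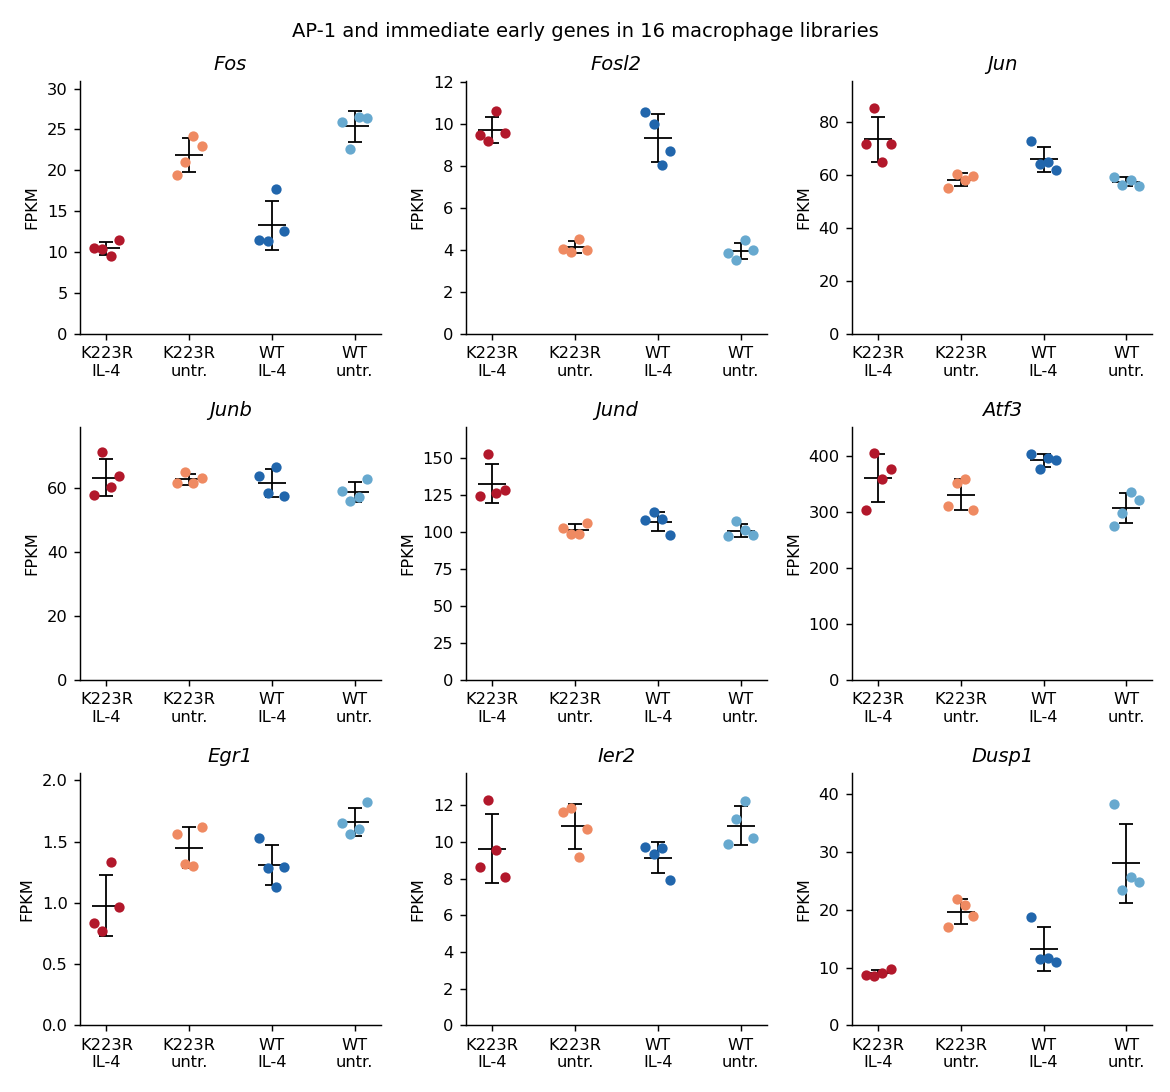
Level in FPKM of the 9 genes in each library (points), with the group mean (line) and SD (bars), in macrophages of Sirt3K223R mice (K223R) and wild-type mice (WT) with IL-4 or untreated (untr.), n = 4 each. Fosl2 is higher and Fos and Dusp1 are lower with IL-4 in both genotypes, and Jund is highest in Sirt3K223R cells with IL-4.

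With IL-4, Fosl2 rose, and Fos and Dusp1 fell, in cells of both genotypes. By limma, Jun and Jund were called higher and Egr1 lower in Sirt3K223R cells alone, and Atf3 was called higher in wild-type cells alone. Jun and Egr1 moved in the same directions in wild-type cells but missed the threshold (adjusted p = 0.0565 and 0.0895). In Sirt3K223R cells 6 of the 9 genes passed the limma test (adjusted p under 0.05), 3 higher and 3 lower, against a background of 42.6% of all tested genes (13.5% higher and 29.1% lower). In wild-type cells 4 of 9 passed, 2 in each direction, against 26.0% of all genes (10.7% higher and 15.3% lower). Of all genes called, 31.65% were higher in Sirt3K223R cells with IL-4 and 41.05% in wild-type cells with IL-4, shares that became 52.07% and 53.49% after median-ratio scaling of the libraries. The median difference over the 9 genes was 0.01 on the log2 scale in Sirt3K223R cells and 0.06 in wild-type cells, beside -0.09 and -0.04 over all genes, since members moved in opposite directions.

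Fos, the founding AP-1 subunit, had 10.5, 10.3, 9.53 and 11.5 FPKM in Sirt3K223R cells with IL-4, against 19.4, 21, 24.2 and 22.9 FPKM in untreated Sirt3K223R cells. In wild-type cells it had 11.5, 11.4, 17.7 and 12.6 FPKM with IL-4, against 26.0, 22.6, 26.5 and 26.4 FPKM untreated. Every library with IL-4 was below every untreated library of its genotype, and replicate 3 of the wild-type IL-4 group was the highest of those. The log2 difference was -0.99 ± 0.11 (SE, adjusted p = 4.59e-06) in Sirt3K223R cells and -0.90 ± 0.11 (adjusted p = 2.33e-05) in wild-type cells. The ratio of group means was 0.479 in Sirt3K223R cells and 0.524 in wild-type cells.

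Fosl2 (Fra-2), a Fos family member without the strong activation domain, moved the other way. It had 9.51, 9.21, 10.6 and 9.61 FPKM in Sirt3K223R cells with IL-4, against 4.05, 3.92, 4.55 and 4.0 FPKM untreated. Wild-type cells had 10.6, 10.0, 8.08 and 8.74 FPKM with IL-4, against 3.88, 3.51, 4.47 and 3.99 FPKM untreated. The groups were far apart in both genotypes, with ratios of means of 2.36 in each. The log2 difference was 1.06 ± 0.080 in Sirt3K223R cells (adjusted p = 5.64e-08) and 1.06 ± 0.080 in wild-type cells (adjusted p = 1.19e-07).

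The opposite changes altered the Fosl2 to Fos ratio within each library. The ratio of FPKM values was 0.906, 0.890, 1.11 and 0.838 in Sirt3K223R cells with IL-4, against 0.174 to 0.209 in untreated Sirt3K223R cells. It was 0.920, 0.880, 0.456 and 0.696 in wild-type cells with IL-4, against 0.149 to 0.169 in untreated wild-type cells. With IL-4 the level of Fosl2 came close to that of Fos in most libraries, and in every untreated library it was far below it. Among the summed FPKM of the 6 AP-1 subunits Fos, Fosl2, Jun, Junb, Jund and Atf3, Fos made up 1.62% with IL-4 and 3.78% without in Sirt3K223R cells, and 2.05% with and 4.59% without in wild-type cells. Fosl2 made up 1.51% with and 0.714% without IL-4 in Sirt3K223R cells, and 1.44% and 0.716% in wild-type cells with and without it. Jun family transcripts and Atf3 made up the rest, so Fos and Fosl2 were a small share of the summed FPKM of these 6 genes in every group. Fosb and the other AP-1 subunits were not part of this sum.

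**Figure D2:**
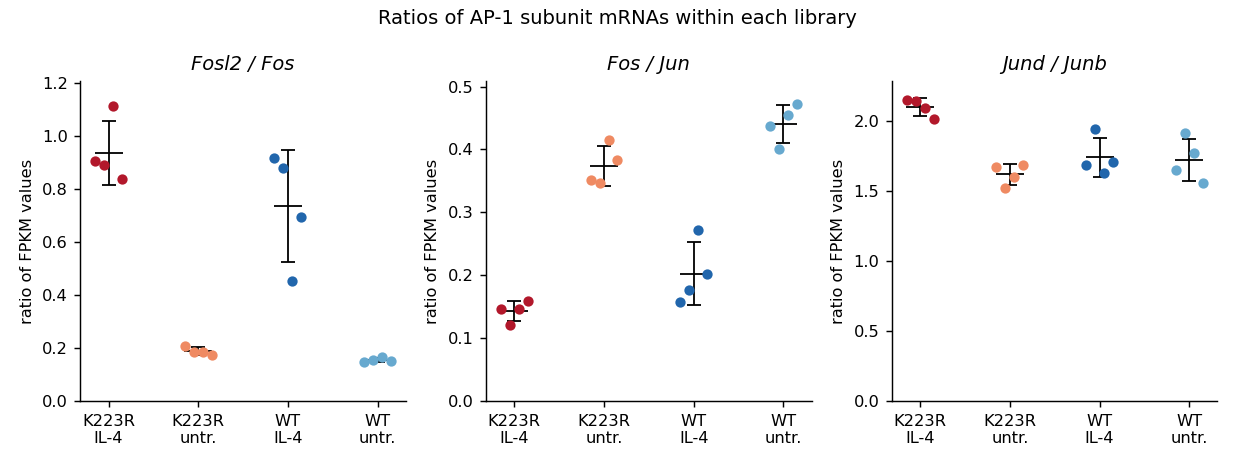
Ratios of FPKM values of Fosl2 to Fos, Fos to Jun and Jund to Junb in each library (points), with group mean and SD, in Sirt3K223R (K223R) and wild-type (WT) macrophages with IL-4 or untreated, n = 4 each. The Fosl2 to Fos ratio is 0.456 to 1.11 in the 8 libraries with IL-4 and 0.149 to 0.209 in the 8 untreated libraries.

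Jun, the main partner of Fos, had 71.7, 85.4, 65.2 and 71.8 FPKM in Sirt3K223R cells with IL-4, against 55.0, 60.6, 58.2 and 59.7 FPKM untreated. In wild-type cells it had 73.0, 64.1, 64.9 and 62.0 FPKM with IL-4, against 59.4, 56.3, 58.3 and 56.0 FPKM untreated. All IL-4 libraries lay above all untreated libraries in both genotypes, by a smaller margin in wild-type cells. Jun rose in Sirt3K223R cells (log2 difference 0.32 ± 0.071, adjusted p = 0.00189, and 0.25, adjusted p = 0.00292, without replicate 2 of the IL-4 group). In wild-type cells the difference of 0.19 ± 0.071 missed the threshold (adjusted p = 0.0565), and it passed when replicate number was fitted as a block (adjusted p = 0.0319) or without replicate 4 of the IL-4 group (adjusted p = 0.0492). The Fos to Jun ratio of FPKM values averaged 0.143 ± 0.0161 with IL-4 and 0.374 ± 0.0319 without in Sirt3K223R cells, and 0.203 ± 0.0502 with and 0.441 ± 0.0301 without in wild-type cells (SD, n = 4 each).

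Jund, the Jun family member usually expressed without a stimulus, had 124, 153, 126 and 128 FPKM in Sirt3K223R cells with IL-4, against 103, 98.6, 98.3 and 106 FPKM untreated. Wild-type cells had 108, 113, 108 and 98.1 FPKM with IL-4, against 97.2, 107, 101 and 97.9 FPKM untreated. The 4 Sirt3K223R libraries with IL-4 stood above the other 12 libraries, while the wild-type groups overlapped. Jund rose in Sirt3K223R cells (log2 difference 0.38 ± 0.065, adjusted p = 0.000235, and 0.31, adjusted p = 0.000185, without the high replicate 2). In wild-type cells the difference was 0.08 ± 0.065 (adjusted p = 0.397), and it was -0.03 after quantile normalization.

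Junb, which like Jund lacks introns, was at similar levels in all groups. It ranged from 57.7 to 71.2 FPKM in Sirt3K223R cells with IL-4 and from 61.4 to 65.0 FPKM untreated, and from 57.4 to 66.6 FPKM in wild-type cells with IL-4 and from 56.0 to 62.8 FPKM untreated. The 95% interval of its IL-4 difference ran from -0.13 to 0.14 on the log2 scale in Sirt3K223R cells (adjusted p = 0.949; the difference was -0.05 without replicate 2 of the IL-4 group) and from -0.07 to 0.20 in wild-type cells (adjusted p = 0.517). The Jund to Junb ratio of FPKM values averaged 2.10 ± 0.0650 with IL-4 and 1.62 ± 0.0760 without in Sirt3K223R cells, and 1.74 ± 0.137 with and 1.72 ± 0.153 without in wild-type cells (SD, n = 4 each).

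Atf3, a stress-induced factor of the Atf/Creb family that often represses, had 303, 404, 358 and 376 FPKM in Sirt3K223R cells with IL-4, against 310, 351, 358 and 302 FPKM untreated. In wild-type cells it had 404, 375, 396 and 393 FPKM with IL-4, against 275, 297, 335 and 320 FPKM untreated. The wild-type groups did not overlap, and the Sirt3K223R groups did. Atf3 rose in wild-type cells (log2 difference 0.36 ± 0.086, adjusted p = 0.0058), a call that was lost after quantile normalization, where the difference was 0.18 (adjusted p = 0.218). In Sirt3K223R cells the difference was 0.12 ± 0.086 (adjusted p = 0.278), and it was -0.05 after quantile normalization. Without replicate 2 of the Sirt3K223R IL-4 group it was 0.06 (adjusted p = 0.581), and without replicate 1 of that group 0.20 (adjusted p = 0.0494).

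Dusp1, the phosphatase that dephosphorylates p38, JNK and ERK kinases, had 8.77, 8.63, 9.07 and 9.71 FPKM in Sirt3K223R cells with IL-4, against 17.0, 21.9, 20.8 and 18.9 FPKM untreated. In wild-type cells it had 18.8, 11.5, 11.6 and 11.0 FPKM with IL-4, against 38.3, 23.4, 25.7 and 24.7 FPKM untreated. Replicate 1 stood above the other 3 in both wild-type groups, and IL-4 and untreated libraries did not overlap in either genotype. Dusp1 fell by 1.03 ± 0.159 on the log2 scale in Sirt3K223R cells (adjusted p = 9.49e-05) and by 1.03 ± 0.159 in wild-type cells (adjusted p = 0.000168). Without replicate 1 in both wild-type groups, a setting chosen after its values were seen, the wild-type difference was -1.05 (adjusted p = 8.84e-07).

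Egr1, a zinc finger factor induced through serum response factor, had 0.839, 0.772, 1.33 and 0.966 FPKM in Sirt3K223R cells with IL-4, against 1.57, 1.32, 1.30 and 1.62 FPKM untreated. Wild-type cells had 1.53, 1.29, 1.13 and 1.30 FPKM with IL-4, against 1.65, 1.56, 1.60 and 1.82 FPKM untreated. The Sirt3K223R groups overlapped at replicate 3 of the IL-4 group, and the wild-type groups did not overlap. Egr1 fell by 0.32 ± 0.084 on the log2 scale in Sirt3K223R cells (adjusted p = 0.00721), a call that was lost after quantile normalization (-0.20, adjusted p = 0.0565). In wild-type cells the difference was -0.21 ± 0.084 (adjusted p = 0.0895).

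Ier2, a nuclear protein of the immediate early class, had 8.63, 12.3, 9.56 and 8.09 FPKM in Sirt3K223R cells with IL-4, against 11.6, 11.8, 9.18 and 10.7 FPKM untreated. Wild-type cells had 9.70, 9.34, 9.65 and 7.90 FPKM with IL-4, against 9.87, 11.3, 12.2 and 10.2 FPKM untreated. The wild-type groups were apart by a narrow gap, and replicate 2 with IL-4 was the highest of all 8 Sirt3K223R libraries. The differences of -0.16 ± 0.112 in Sirt3K223R cells (adjusted p = 0.26) and -0.23 ± 0.112 in wild-type cells (adjusted p = 0.157) missed the threshold, and the first of these was -0.28 (adjusted p = 0.0315) without that replicate. Counting groups that did not overlap, 5 members were apart in Sirt3K223R cells, 3 higher and 2 lower, against 40.6% of all genes (12.8% higher and 27.8% lower). In wild-type cells 7 were apart, 3 higher and 4 lower, against 28.1% of all genes (11.5% higher and 16.6% lower).

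**Figure D3:**
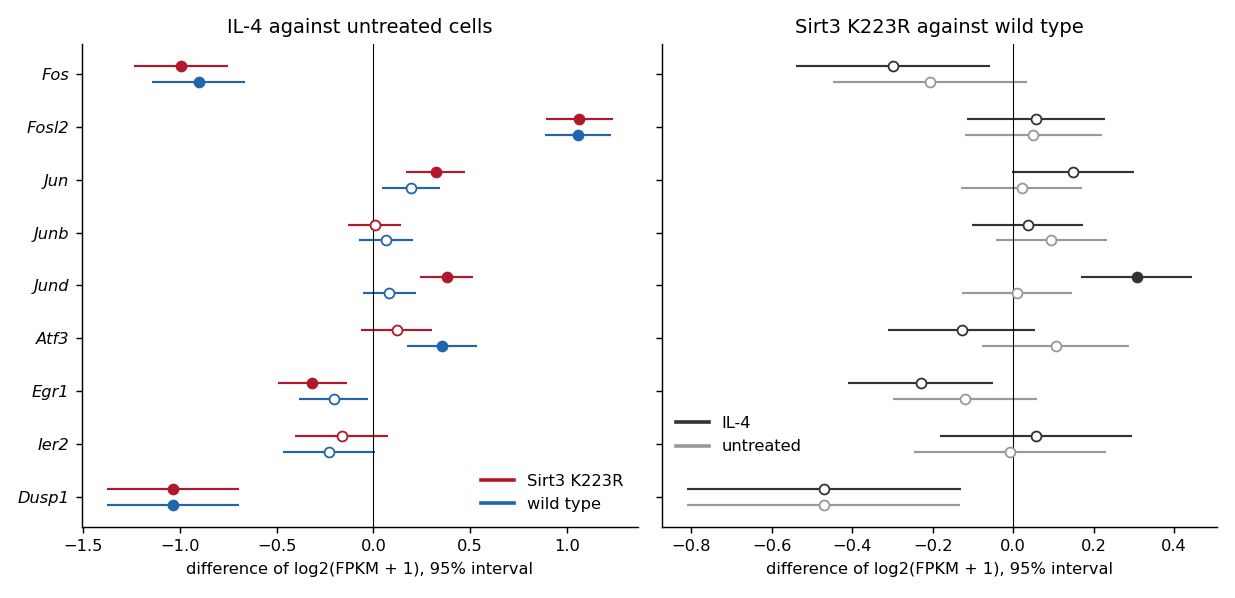
Differences of log2(FPKM + 1) for the 9 genes (points) with 95% intervals from limma, showing the IL-4 response of each genotype (left) and Sirt3K223R against wild-type cells with and without IL-4 (right); filled points passed an adjusted p of 0.05. Fosl2 lies near 1 and Fos and Dusp1 near -1 in both genotypes on the left, and on the right only Jund with IL-4 is filled (0.31), a call lost when only the groups compared were fitted.

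In untreated cells none of the 9 genes differed between Sirt3K223R and wild-type macrophages by the limma test, nor did any of the 9891 genes (0.0%). At an unadjusted p under 0.05, 1 of the 9 and 737 of all genes were counted. That member was Dusp1, at 19.6 ± 2.15 FPKM in Sirt3K223R cells and 28.0 ± 6.88 FPKM in wild-type cells (SD, n = 4 each). Its libraries did not overlap, against 5.1% of all genes apart (2.44% higher and 2.66% lower), and its log2 difference was -0.47 ± 0.159 (unadjusted p = 0.00987, adjusted p = 0.522). Without replicate 1 in both wild-type groups the difference was -0.32 (adjusted p = 0.323). Fos averaged 21.9 ± 2.12 FPKM in Sirt3K223R cells and 25.4 ± 1.86 FPKM in wild-type cells, with an interval of the log2 difference from -0.45 to 0.03. For the other 7 genes the differences lay between -0.12 and 0.11, and their 95% intervals all lay between -0.30 and 0.29.

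With IL-4, 1 of the 9 genes, Jund, was higher in Sirt3K223R than in wild-type cells, against 15.0% of all genes called (5.0% higher and 10.0% lower; higher calls were 33.29% of these and 57.15% after median-ratio scaling). Its 4 Sirt3K223R libraries (124 to 153 FPKM) lay above its 4 wild-type libraries (98.1 to 113 FPKM), with a log2 difference of 0.31 ± 0.065 and an adjusted p of 0.0057. Leaving out the high replicate 2 gave 0.24 (adjusted p = 0.00563). The call was lost when only the 8 libraries compared were fitted (adjusted p = 0.0515).

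Dusp1 was 9.04 ± 0.483 FPKM in Sirt3K223R cells with IL-4 and 13.2 ± 3.73 FPKM in wild-type cells with IL-4 (SD, n = 4 each), again without overlap. Of the 9 genes, Jund was apart upward and Dusp1 downward, against 18.2% of all genes apart (5.81% higher and 12.3% lower). The log2 difference of -0.47 ± 0.159 had an adjusted p of 0.06, which passed with replicate number as a random block (adjusted p = 0.0479) and without replicate 1 in both wild-type groups, where the difference was -0.30 (adjusted p = 0.0211). Fos (10.5 ± 0.792 FPKM in Sirt3K223R cells and 13.3 ± 2.99 FPKM in wild-type cells) differed by -0.30 ± 0.113 (adjusted p = 0.0876), and by -0.16 (adjusted p = 0.206) without replicate 3 of the wild-type IL-4 group. Egr1 (0.977 ± 0.250 FPKM in Sirt3K223R cells and 1.31 ± 0.163 FPKM in wild-type cells) differed by -0.23 ± 0.084 (adjusted p = 0.0798), and by -0.31 (adjusted p = 0.0148) without replicate 3 of the Sirt3K223R IL-4 group. Together with Jund these are the 4 members with an unadjusted p under 0.05. Jun differed by 0.15 (adjusted p = 0.171), and by 0.08 (adjusted p = 0.409) without replicate 2 of the Sirt3K223R IL-4 group. Atf3 differed by -0.13 (adjusted p = 0.333), and by -0.05 (adjusted p = 0.723) without replicate 1 of that group. Fosl2, Junb and Ier2 differed by 0.04 to 0.06, and without replicate 2 by 0.08, -0.02 and -0.06.

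The interaction asks whether the IL-4 response itself differed between genotypes. By limma 0 of the 9 genes passed, against 2.14% of all genes (0.778% positive and 1.36% negative), and 1 of the 9 had an unadjusted p under 0.05, compared with 1588 of all genes; fitting replicate number as a block raised the 212 genes called to 326 without adding a member. Positive ones were 36.32% of the 212, and 59.03% of the genes called after median-ratio scaling. The member with an unadjusted p under 0.05 was Jund, whose response was larger in Sirt3K223R cells by 0.30 ± 0.091 on the log2 scale (unadjusted p = 0.00536, adjusted p = 0.113). Without the high replicate 2 it was larger by 0.23 (adjusted p = 0.0886), and the interactions of the other 8 genes then lay between -0.29 and 0.05. The rise of Atf3 that passed in wild-type cells alone gave an interaction of -0.23, with an interval from -0.49 to 0.02 (adjusted p = 0.366), so a difference between genotypes was not shown. Nor was a difference shown for Jun (interaction 0.13, adjusted p = 0.565) or for Egr1 (-0.11, adjusted p = 0.697), each called in Sirt3K223R cells alone. The intervals of the interaction for the genes that moved most ran from -0.23 to 0.25 for Fosl2, from -0.43 to 0.25 for Fos and from -0.48 to 0.48 for Dusp1. The fall of Dusp1 could therefore differ between genotypes by up to 0.48 on the log2 scale in either direction.

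Across the 16 libraries, Fos and Dusp1 levels on the log2(FPKM + 1) scale ran together (Pearson r = 0.878) and both ran against Fosl2 (r = -0.938 for Fos and -0.831 for Dusp1). These points share the IL-4 treatment, so the correlations are descriptions of the group pattern. After each group mean was taken off, the correlation of Fos with Dusp1 was -0.05, that of Fos with Fosl2 was -0.35, and the highest values among members were those of Jund with Ier2 (0.750), Jun with Junb (0.641) and Jun with Jund (0.583), all intronless genes. Next came Junb with Atf3 (0.539), and Atf3 has 4 exons. Jun, Junb, Jund, Ier2 and also Atf3 were each highest of their group in replicate 2 of the Sirt3K223R group with IL-4. The correlations were not computed without that library. Among all tested genes outside the set, the levels most like those of Fosl2 were those of Angptl2 (r = 0.991), Tmem26 (0.989) and Nfil3 (0.989). Fos was most like Sephs2 (0.966), Slc27a1 (0.963) and Il17ra (0.962), and Dusp1 most like Slc37a1 (0.965), Tspan13 (0.965) and Mknk2 (0.963), a kinase acting downstream of MAP kinases. Jun was most like Mfsd12 (0.956) and Pi4k2a (0.954), and Jund most like Borcs6 (0.965), Bbc3 (0.934) and Pnp2 (0.922). Atf3 was most like the scavenger receptor gene Cd36 (0.884) and Egr1 most like Pex13 (0.922). Ier2 was most like Pigyl (0.922), and the highest value for Junb was 0.779 (Rhoc).

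Other basic leucine zipper genes that can join AP-1 dimers, a list of 12 of which 10 were tested, also moved in both directions with IL-4. In Sirt3K223R cells 3 rose and 3 fell, and in wild-type cells 2 rose and 3 fell, where 13.5% and 29.1% of all genes in Sirt3K223R cells and 10.7% and 15.3% in wild-type cells were called higher and lower. The 3 that fell in Sirt3K223R cells were 5 without replicate 1 of the IL-4 group, and the 2 that rose in wild-type cells were 1 with the replicate block and without replicate 1 or 2 of the IL-4 group or replicate 1 of the untreated group. The differences had list medians of -0.20 and 0.04 beside -0.09 and -0.04 over all genes. Batf3, a partner of Jun proteins known from dendritic cells, averaged 11.9 ± 0.899 FPKM with IL-4 and 1.16 ± 0.0881 FPKM without in Sirt3K223R cells (log2 difference 2.57, adjusted p = 2.2e-09). In wild-type cells Batf3 averaged 9.24 ± 1.76 FPKM with IL-4 and 1.16 ± 0.543 FPKM without (2.26, adjusted p = 1.84e-08). Maf, a large Maf factor, and Mafg, a small one without an activation domain, fell in both genotypes, by 1.09 and 0.77 in Sirt3K223R cells and by 0.91 and 0.64 in wild-type cells. Between genotypes 1 of the 10 differed with IL-4, the small Maf gene Maff (0.643 ± 0.190 FPKM in Sirt3K223R and 1.34 ± 0.156 FPKM in wild-type cells, log2 difference -0.51, adjusted p = 0.0134), and 0 differed in untreated cells or in the interaction. Of all genes, 15.0% were called between genotypes with IL-4, 0.0% in untreated cells and 2.14% in the interaction.

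Of 37 other immediate early genes, 32 were tested. With IL-4, 13 rose and 6 fell in Sirt3K223R cells and 14 rose and 6 fell in wild-type cells, with list medians of 0.06 and 0.14. Over all genes 13.5% were called higher and 29.1% lower in Sirt3K223R cells, and 10.7% higher and 15.3% lower in wild-type cells. Ier3, a survival gene of the same class as Ier2, averaged 61.1 FPKM with IL-4 and 11.1 FPKM without in Sirt3K223R cells (2.36) and 56.3 FPKM with and 12.3 FPKM without in wild-type cells (2.11). Egr2, a paralogue of Egr1 named after its values were seen, averaged 50.7 FPKM with IL-4 and 13.1 FPKM without in Sirt3K223R cells and 56.9 and 14.1 FPKM in wild-type cells with and without it. Egr1, near the floor, was lower with IL-4 in both genotypes (log2 differences of -0.32 in Sirt3K223R and -0.21 in wild-type cells). By limma it was called in Sirt3K223R cells alone, and not after quantile normalization (adjusted p = 0.0565). Nfkbiz, which encodes a nuclear regulator of NF-κB, fell by 1.43 and by 1.19 on the log2 scale in Sirt3K223R and wild-type cells.

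Between genotypes with IL-4, 5.0% of all genes were called higher and 10.0% lower in Sirt3K223R cells. In the interaction 0.778% of all genes passed upward and 1.36% downward. Of the 32 tested immediate early genes, 4 were higher and 6 lower in Sirt3K223R cells with IL-4. In the interaction 2 of them passed upward and 1 downward (3 and 2 with the replicate block, and 1 to 3 and 0 to 2 when single libraries were left out). Klf2, a zinc finger factor that restrains inflammatory genes, had the smallest interaction p of the 3. It averaged 9.60 ± 0.870 FPKM with IL-4 and 2.39 ± 0.250 FPKM without in Sirt3K223R cells, and 3.88 ± 0.375 FPKM with and 3.02 ± 0.526 FPKM without in wild-type cells (interaction 1.36 ± 0.129, adjusted p = 0.000135). The antiproliferative gene Btg2 (interaction 0.48, adjusted p = 0.0271) and the kinase gene Plk3 (-0.59, adjusted p = 0.0225) each lost the call in some settings that left out libraries, with adjusted p up to 0.0584 and 0.0644. Nfkbia, which encodes the NF-κB inhibitor IκBα, averaged 29.7 ± 2.48 FPKM in Sirt3K223R cells with IL-4 and 42.2 ± 6.69 FPKM in wild-type cells with IL-4 (log2 difference -0.48, adjusted p = 0.0029).

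**Figure D4:**
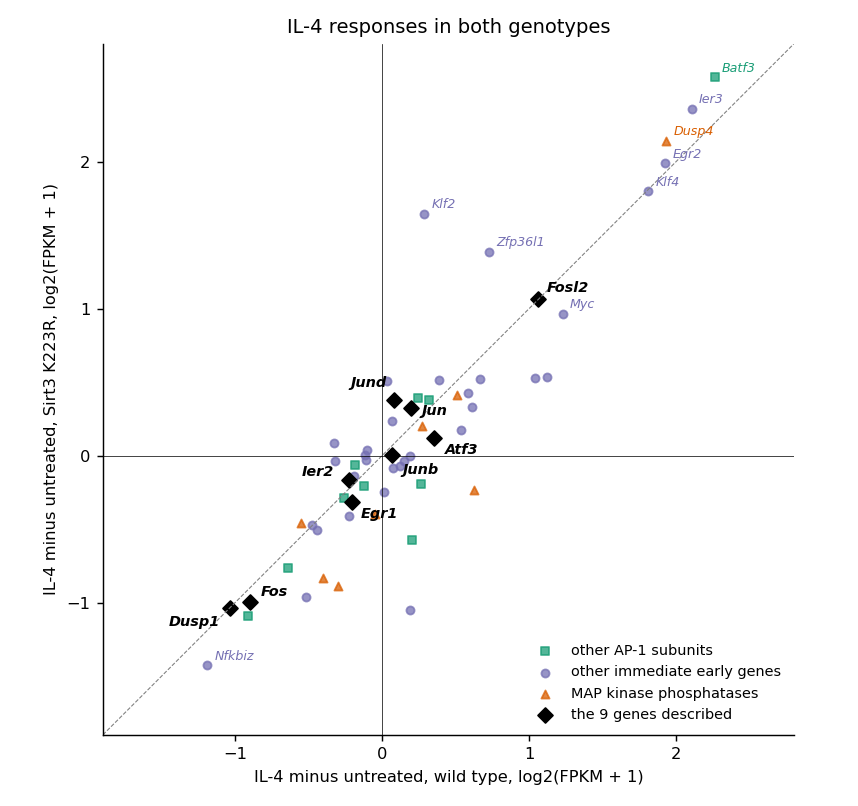
IL-4 minus untreated difference of log2(FPKM + 1) in Sirt3K223R cells (vertical axis) against wild-type cells (horizontal axis) for the 9 genes described (black diamonds) and the tested members of 3 related lists; the dashed line marks equal differences. Fosl2 (1.06 in each), Fos and Dusp1 lie near the line, and Klf2 lies above it (1.65 in Sirt3K223R and 0.29 in wild-type cells).

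The MAP kinase phosphatases related to Dusp1 did not move with it as a family. Of 8 tested members of a list of 11, 3 rose and 4 fell with IL-4 in Sirt3K223R cells, and 4 rose and 1 fell in wild-type cells (2 without replicate 3 of the IL-4 group or replicate 1 of the untreated group), beside 42.6% and 26.0% of all genes called. Dusp4, a nuclear phosphatase of ERK, averaged 24.2 ± 4.02 FPKM with IL-4 and 4.71 ± 0.886 FPKM without in Sirt3K223R cells (2.14, adjusted p = 6.1e-08), and 23.4 ± 5.54 FPKM with and 5.30 ± 0.766 FPKM without in wild-type cells (1.93, adjusted p = 3.55e-07). Dusp6, a cytoplasmic ERK phosphatase, fell by 0.89 in Sirt3K223R cells (adjusted p = 2.16e-05), and in wild-type cells its difference of -0.30 had an adjusted p of 0.0712, and of 0.0112 with replicate number as a block, where 3 members fell. With IL-4, 2 members were lower in Sirt3K223R than in wild-type cells, where 10.0% of all genes were called lower. These 2 were Dusp6 (3.06 ± 0.344 FPKM in Sirt3K223R and 4.94 ± 1.22 FPKM in wild-type cells) and Dusp2 (1.95 ± 0.403 FPKM in Sirt3K223R and 3.77 ± 1.14 FPKM in wild-type cells). Dusp2 alone passed in the interaction (-0.86, adjusted p = 0.0295), where 1.36% of all genes passed downward. That call was lost in settings that left out single libraries, with adjusted p up to 0.0653. With the replicate block 3 members passed in the interaction, all negative, among them Dusp6 (-0.58, adjusted p = 0.085 without the block and 0.0188 with it).

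Upstream of AP-1, 23 of 24 MAP kinase cascade genes were tested. With IL-4, 3 rose and 10 fell in Sirt3K223R cells, and 3 rose and 4 fell in wild-type cells, beside 42.6% and 26.0% of all genes called. The 3 that rose in wild-type cells were 1 without replicate 4 of the IL-4 group. The 10 that fell in Sirt3K223R cells were 4 after median-ratio scaling and 5 after quantile normalization. Map3k5 (the stress kinase ASK1) and Mapk7 (ERK5) fell in both genotypes, by 1.17 and 0.79 in Sirt3K223R cells and by 0.75 and 0.52 in wild-type cells. Among 9 tested factors of the serum response and CREB families, 3 rose and 1 fell in Sirt3K223R cells and 1 rose and 1 fell in wild-type cells. The 3 that rose in Sirt3K223R cells were 1 without replicate 3 or 4 of the IL-4 group or replicate 1, 2 or 4 of the untreated group, and the 1 in wild-type cells was 0 without replicate 2 of the IL-4 group or replicate 1, 3 or 4 of the untreated group. The factor that fell in both was Elk3, a cofactor of serum response factor (-0.78 in Sirt3K223R and -0.44 in wild-type cells). Between genotypes with IL-4, 1 cascade gene was higher and 2 were lower, and 1 serum response or CREB factor was higher and 1 lower, in Sirt3K223R cells. Of all genes, 5.0% were called higher and 10.0% lower in that comparison. Of the serum response and CREB factors 0 passed with the replicate block. Leaving out single libraries gave 1 to 3 lower cascade genes, and 0 to 2 higher and 0 to 1 lower serum response or CREB factors. In the interaction 1 cascade gene passed upward, where 0.778% of all genes did. It was the kinase gene Map3k11 (0.26, adjusted p = 0.0413), which did not pass with the replicate block (adjusted p = 0.0867) or without most single libraries, with adjusted p up to 0.112.

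Among 20 genes reported elsewhere as AP-1 targets, all tested, 4 rose and 8 fell with IL-4 in Sirt3K223R cells and 7 rose and 6 fell in wild-type cells, beside 42.6% and 26.0% of all genes called. The integrin gene Itgax averaged 389 ± 9.79 FPKM with IL-4 and 82.5 ± 15.7 FPKM without in Sirt3K223R cells, and 282 ± 17.0 FPKM with and 85.6 ± 9.23 FPKM without in wild-type cells. The chemokine genes Ccl3 and Ccl4 fell in both genotypes, by 2.46 and 2.67 in Sirt3K223R cells and by 1.71 and 1.70 in wild-type cells. Between genotypes with IL-4, 3 of the 20 were higher and 9 lower in Sirt3K223R cells, with a list median of -0.38 beside -0.05 over all genes. Like the other lists, this list was chosen with earlier results of these data known, so its counts and median are descriptions. Of all genes, 5.0% were called higher and 10.0% lower in that comparison. The chemokine gene Ccl2 averaged 6.56 ± 1.03 FPKM in Sirt3K223R cells with IL-4 and 17.3 ± 1.69 FPKM in wild-type cells with IL-4 (log2 difference -1.28, adjusted p = 7.03e-05). The urokinase gene Plau averaged 46.3 ± 10.2 FPKM in Sirt3K223R cells and 92.4 ± 14.6 FPKM in wild-type cells (-0.99, adjusted p = 0.00289). In the interaction, 0.778% of all genes passed upward and 1.36% downward. Of the 20, 3 passed downward, Ccl4, Ccl2 and Plau, each with settings in which the call was lost. For Ccl2 the replicate block was among those settings (adjusted p = 0.0548). With that block 130 of all genes passed upward and 196 downward, and of the 20 genes 2 passed upward and 4 downward. Leaving out single libraries gave 0 to 4 downward, with 0 without replicate 2 of the untreated Sirt3K223R group. In untreated cells 0 members of any of these lists differed between genotypes by limma, as for all genes.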

How the data were processed

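Messenger RNA was sequenced from both ends in stranded libraries, per the labels' protocols, after poly(A) selection or removal of ribosomal RNA; the choice for each library, the aligner, the counter and the build of the alignment were not given in the sources used here. Deposited tables hold 1 value per gene and library, taken as FPKM made by the authors: no unit stands in the headers, and the inference rests on fractional values whose sums per library run from 288143 to 306581. Whole reads could not be recovered from low values, so depth is unknown and no counting interval is given. A column of gene types stands in the Sirt3K223R tables alone, and processing by the authors that differed between the tables cannot be told apart from genotype.

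Genes with at least 1 FPKM in at least 4 libraries were kept, and log2(FPKM + 1) values of all 16 libraries were fitted as 4 group means with limma 3.58.1 in R 4.3.3 (mean-variance trend, empirical Bayes). The 5 contrasts were adjusted by Benjamini-Hochberg over 9891 genes, and called at an adjusted p under 0.05. Fold changes on this scale understate changes of low genes. Counts of calls, ranges and ratios were computed in Python 3.11.15 with pandas 2.3.3. The fit was tested on simulated data. No member failed the filter, so the exact test planned for that case was not needed.

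The 10 genes, the 7 gene lists and the markers of 8 cell types were chosen with earlier results of these data known. Named from each list were up to 4 genes with the smallest adjusted p in the interaction, up to 3 in each other contrast and, where fewer than 2 were called, the 2 with the highest level; likeness was ranked by Pearson correlation over the 16 libraries. Alternatives were a pseudocount of 0.1, no filter, median-ratio scaling, quantile normalization, only the groups compared, replicate number as a fixed or random block, and leaving out each library. The random block, and the fixed block for IL-4 responses and the interaction, joined same-numbered libraries within a genotype. For contrasts between genotypes the fixed block joined all libraries of a number. Same-numbered libraries of the genotypes had deviations that correlated at -0.166 to 0.0427. Same-numbered untreated and IL-4 libraries of wild-type mice deviated together over all genes (correlations of 0.286, 0.122, 0.100 and 0.116), so these numbers were taken to pair. Those of Sirt3K223R mice were not taken to pair (0.0524, 0.0830, 0.127 and -0.0452), although 0.0830 and 0.127 are close to wild-type values. The main fit used no pairing in either genotype, and the block settings joined Sirt3K223R libraries as well. Promoter windows are from RefSeq on GRCm38.p6.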

Additional observations from a re-analysis of the deposited data

Results flagged for a closer look

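Each of the 9 genes was examined in each of the 4 groups for a single library that stood apart from the other 3 by a gap that made up more of the range than Dixon's critical value allows. Of these 36 sets of 4 libraries, 4 held such a library, where chance gives about 1 in 20. Dusp1 stood apart in replicate 1 of the wild-type group with IL-4 (18.8 FPKM, against 11.0 to 11.6 FPKM in the other 3) and in replicate 1 of the untreated wild-type group (38.3 FPKM, against 23.4 to 25.7 FPKM). The deviations of Dusp1 from its group means over the 16 libraries were most like those of Lima1 (r = 0.963), Abca3 (0.957) and Ezr (0.933). Jund stood apart in replicate 2 of the Sirt3K223R group with IL-4 (153 FPKM, against 124 to 128 FPKM). Fos was low in replicate 2 of the untreated wild-type group (22.6 FPKM, against 26.0 to 26.5 FPKM).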

How the results depend on the processing

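The calls of Fos, Fosl2 and Dusp1 with IL-4 in both genotypes, and of Jun and Jund in Sirt3K223R cells, held under every alternative run. Depth is unknown, and 4 libraries a group limit the precision. Leaving out single libraries ended no call of the 9 genes. It added Atf3 (adjusted p = 0.0494) and Ier2 (adjusted p = 0.0315) with IL-4 in Sirt3K223R cells without replicates 1 and 2 of the IL-4 group, Jun in wild-type cells without replicate 4 of the IL-4 group (adjusted p = 0.0492), and Egr1 between genotypes with IL-4 (adjusted p = 0.0148). For Sirt3K223R against wild-type cells with IL-4, 1 member was called, 0 with only the groups compared, 2 with the random block, 2 without replicate 1 in both wild-type groups and 1 to 2 when single libraries were left out; over all genes 1487 became 703 with only the groups compared. In untreated cells the 0 genes called between genotypes became 1 with only the groups compared, 1 without replicate 1 in both wild-type groups and 0 to 2 when single libraries were left out. The 212 genes of the interaction became 326 with the replicate block, 401 with the random block (consensus correlation 0.152), 124 without replicate 1 in both wild-type groups and 112 to 344 when single libraries were left out, lowest without replicate 2 of the untreated Sirt3K223R group (112) and highest without replicate 2 of the Sirt3K223R IL-4 group (344); those without replicate 3 of the Sirt3K223R IL-4 group (116), replicate 3 of the untreated Sirt3K223R group (136) and replicates 3 (130) and 4 (131) of the wild-type IL-4 group also fell outside 1.5 times. The cause was not tested.

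Signs changed only for differences that were not called. With IL-4 in Sirt3K223R cells, quantile normalization gave -0.0355 for Junb and -0.0479 for Atf3, and in wild-type cells -0.0276 for Jund. In the interaction, median-ratio scaling gave 0.000226 for Junb and a pseudocount of 0.1 gave -0.0185 for Dusp1. Without replicate 1 in both wild-type groups, Jund differed by -0.00741 between untreated genotypes. Leaving out single libraries gave ranges of -0.0515 to 0.0481 for Junb with IL-4 in Sirt3K223R cells, -0.0128 to 0.0381 for Jund and -0.0496 to 0.0632 for Ier2 between untreated genotypes, and -0.00416 to 0.113 for Fosl2, -0.0218 to 0.0778 for Junb and -0.0553 to 0.128 for Ier2 between genotypes with IL-4. In the interaction they were -0.153 to 0.0447 for Fos, -0.0543 to 0.0631 for Fosl2, -0.0478 to 0.135 for Ier2 and -0.153 to 0.171 for Dusp1. The replicate block changed the call of 1 of the 9 genes, Jun in wild-type cells (adjusted p = 0.0319), and the random block changed those of Jun (adjusted p = 0.0324) and of Dusp1 between genotypes with IL-4 (adjusted p = 0.0479). Jun in wild-type cells also passed after median-ratio scaling (adjusted p = 0.027) and with only the groups compared (adjusted p = 0.0351). A fit of only the groups compared does not exist for the interaction, which uses all 4.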

Other observations

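Heat shock genes, which encode chaperones and many of which are induced by stress, were followed as a separate list of 13, all tested. With IL-4, 3 rose and 3 fell in Sirt3K223R cells and 7 rose and 1 fell in wild-type cells (2 without replicate 2 of the untreated group), beside 42.6% and 26.0% of all genes called, with list medians of -0.02 and 0.18. The inducible chaperone gene Hspa1b averaged 4.40 ± 0.886 FPKM with IL-4 and 1.55 ± 0.104 FPKM without in Sirt3K223R cells, and 4.24 ± 1.02 FPKM with and 2.08 ± 0.334 FPKM without in wild-type cells (SD, n = 4 each). Reads of Hspa1b and its near-identical copy Hspa1a may have been split between them by the counting, so both values are uncertain.

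Between genotypes with IL-4, 5.0% of all genes were called higher and 10.0% lower in Sirt3K223R cells. Of the 13, 4 were lower and 0 higher (1 without replicate 4 of the wild-type IL-4 group). Among them were the mitochondrial chaperone genes Hspd1 (62.5 ± 1.88 FPKM in Sirt3K223R and 83.6 ± 5.77 FPKM in wild-type cells, log2 difference -0.41, adjusted p = 0.000224 by limma) and Hspe1 (52.1 ± 2.44 FPKM in Sirt3K223R and 71.5 ± 2.98 FPKM in wild-type cells, -0.45, adjusted p = 0.000285). In the interaction, 2.14% of all genes passed. Of the 13, 1 passed, Hspd1 (-0.35, adjusted p = 0.029), a call that was lost after median-ratio scaling and when some single libraries were left out, with adjusted p up to 0.0684. In untreated cells 0 of the 13 differed between genotypes by limma.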
